A study of Mus musculus with 16 samples.

Results

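The comparison was that of B16-OVA tumors from mice treated with an agonist anti-CD40 Ab alone with tumors from mice that received a control Ab. Members were chosen by the treatment label of each sample, which gave 4 CD40 tumors and 4 control tumors, 8 of the 16 tumors in the series. B16-OVA is a transplantable mouse melanoma line that expresses ovalbumin as a model antigen. All 8 tumors grew under the flank skin of C57BL/6-Ly5.1 mice that were 6 to 12 weeks old at injection of the cells in PBS and Matrigel. CD40 mice were given daily vehicle (MCT) and an anti-CD40 Ab labelled mIgG1, and control mice daily vehicle and control IgG. Antibodies were injected into the peritoneum on days 3, 5 and 7 of treatment and once more on the day before analysis, and tumors were taken on day 18 after inoculation. Neither group received GDC-0623, the MEK inhibitor (MEKi) that was given at 30 mg/kg to the other 8 tumors of the series, 4 of them without and 4 with anti-CD40. Each tumor came from its own mouse, and 200 ng of RNA from a tumor piece was hybridised to 1 array, so that the signal is that of tumor cells, infiltrating cells and any attached host tissue together.

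CD40 is a receptor of the TNF receptor family on dendritic cells, macrophages and B cells, and its natural ligand is displayed by activated helper T cells. Clustering of CD40 recruits TRAF adaptors and activates NF-kB, after which an antigen-presenting cell displays more peptide and costimulatory ligands and can prime cytotoxic T cells, a step called licensing. T cells and NK cells that are activated in this way secrete interferon gamma, which induces MHC molecules, guanylate-binding proteins and the ligands of CXCR3 in the cells around them. Cholesterol and fatty acid synthesis is controlled as a unit in most cells, by SREBP transcription factors that are released when sterols are low.

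The 8 arrays measured 45037 probe sets as log2 signals, and a background level of 4.94, set by olfactory receptor probe sets, lay above the mean of 18024 of them. The melanoma label was borne out in all tumors, with Tyrp1, a melanosome enzyme, between 14.19 and 14.41 in CD40 tumors and between 14.26 and 14.35 in control tumors. Arrays correlated with each other at 0.972 to 0.996 over all probe sets, no pair held identical values, and the gap between the 3′ and 5′ probe sets was at most 0.08 for Gapdh and 0.21 to 0.44 for Actb, widest in CD40 tumor 4 (0.39) and control tumor 4 (0.44). CD40 tumor 3 stood apart. Its mean over 16 skeletal muscle genes lay 2.89 log2 units above the control mean, against −0.01 to 0.08 in the other 3 CD40 tumors and −0.03 to 0.03 in controls. The same tumor had the highest fibroblast and matrix score (2.10, against −0.57 to −0.23 in the other CD40 tumors and −0.38 to 0.30 in controls) and the highest endothelial score (1.00, against −0.09 to 0.08 and −0.10 to 0.15). Of the 16 muscle genes, 8 had a mean below background, and the control score itself was 4.54. The part of this host tissue in the results was not tested, and values without CD40 tumor 3 are given beside the results it moved most.

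Promoter sequence is shown for 7 genes from the groups described below, and only genes that hold a motif match are shown. Windows were taken from RefSeq (GRCm38.p6) as bases before the annotated start, 5′ to 3′ on the strand of the gene, with motif matches in capitals. The motifs were the interferon-stimulated response element (TTTC, any 2 bases, then TTTC), the gamma-activated site TTCNNNGAA, the sterol regulatory element TCACNCCAC and the NF-kB site GGGANTTCC, each searched on both strands. In the full windows of 250 bases before to 50 after a start, 3.44%, 8.30%, 1.24% and 1.68% of 32851 mouse promoters held them in that order, and 2 different motifs overlapped in 37 promoters. A match describes the sequence and does not show binding. The genes shown do not stand for their groups. Among genes with a window, the NF-kB site was in 1 of 11 inflammatory caspase and 3 of 12 interferon gamma response genes (2.35% of all genes). The gamma-activated site was in 1 of 10 MHC class I genes (8.57%). The sterol regulatory element was in 0 of 10 fatty acid synthesis and 0 of 7 SREBP regulation genes (1.46%).
Ubd (NF-kB, chr17:37193818-37193891, plus strand): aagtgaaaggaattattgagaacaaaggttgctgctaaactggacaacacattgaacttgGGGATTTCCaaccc
Cxcl10 (interferon-stimulated response element, then NF-kB, chr5:92348924-92349139, minus strand): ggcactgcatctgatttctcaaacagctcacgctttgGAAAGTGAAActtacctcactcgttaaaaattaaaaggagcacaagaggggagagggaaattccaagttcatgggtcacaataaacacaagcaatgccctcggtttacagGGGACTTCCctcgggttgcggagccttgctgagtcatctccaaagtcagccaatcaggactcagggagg
Oas1a (interferon-stimulated response element, 2 overlapping matches, chr5:120907526-120907605, minus strand): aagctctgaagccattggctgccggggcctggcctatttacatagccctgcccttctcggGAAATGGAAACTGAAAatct
Gbp3 (interferon-stimulated response element, 2 overlapping matches, chr3:142559939-142560043, plus strand): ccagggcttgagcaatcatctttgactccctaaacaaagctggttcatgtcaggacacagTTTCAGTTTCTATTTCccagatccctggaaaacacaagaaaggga
H2-M3 (gamma-activated site, chr17:37269984-37270093, plus strand): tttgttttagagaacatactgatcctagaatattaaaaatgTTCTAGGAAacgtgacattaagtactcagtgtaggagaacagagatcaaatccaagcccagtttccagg
Casp4 (NF-kB, 2 matches, chr9:5308697-5308848, plus strand): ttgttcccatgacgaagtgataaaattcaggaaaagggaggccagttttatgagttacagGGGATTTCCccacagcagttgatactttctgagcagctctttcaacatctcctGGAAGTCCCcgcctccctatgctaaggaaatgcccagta
Hmgcs1 (sterol regulatory element, chr13:119690154-119690282, plus strand): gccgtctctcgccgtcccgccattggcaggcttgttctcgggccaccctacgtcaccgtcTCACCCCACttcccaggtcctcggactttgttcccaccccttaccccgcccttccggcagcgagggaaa

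No probe set passed the test for a difference between CD40 and control tumors. At a Benjamini-Hochberg adjusted p under 0.05 in limma, 0 of 45037 (0%) were called, the smallest adjusted p being 0.0723. At an unadjusted p under 0.05, 1501 probe sets were higher and 2356 lower in CD40 tumors. The split depended on the scaling, since cyclic loess gave 2042 higher and 1476 lower. The share lower was 61.1% with the deposited values and 42.0% after cyclic loess. Counted as genes, with the brightest probe set for each of 18193 genes, 4.04% were higher and 5.94% lower at an unadjusted p under 0.05. In 1.70% of genes every CD40 tumor lay above every control tumor, and in 3.95% every CD40 tumor lay below. These percentages are the background against which the counts in each gene group are to be read. With 4 arrays in each group, the median SE was 0.10 log2 units. Since no gene passed, the values that follow are differences of CD40 minus control in log2 units with their SE (n = 4 tumors each) and describe these tumors. A higher or lower signal in a piece of tumor can mean more or fewer cells of a type or more or less RNA per cell, which cannot be told apart.

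Leukocyte and interferon genes had large differences with large errors. The median SD among controls was 0.93 for 18 pan-leukocyte genes and 0.64 for 22 type I interferon response genes, against 0.13 over all genes. Among CD40 tumors it was 1.03 and 0.50, so that in these lists the spread was similar in both groups. Other immune lists spread more among CD40 tumors, such as inflammatory monocyte genes (1.12, against 0.51 in controls). Others spread less, such as guanylate-binding proteins and immunity-related GTPases (0.58, against 0.94 in controls). Lipid synthesis genes had smaller differences, mostly toward lower signal in CD40 tumors, with smaller errors. The median SE was 0.15 for 17 cholesterol synthesis genes and 0.12 for 13 fatty acid synthesis genes. It was 0.57 for pan-leukocyte genes and 0.10 over all genes. The median SD of the 2 lipid lists was 0.17 and 0.15 among controls. Among CD40 tumors it was 0.28 and 0.20, against 0.14 over all genes. Of the 45 gene lists examined, the mean signal of the list did not overlap between the groups in 4. These were cholesterol synthesis, fatty acid synthesis and SREBP regulation, all lower in every CD40 tumor, and the inflammatory caspases, higher in every CD40 tumor. Of single genes, 1.70% were higher and 3.95% lower without overlap. The lists were chosen with earlier results of these data known, and the 3 lipid lists hold related genes, so the count of lists is a description.

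**Figure D1:**
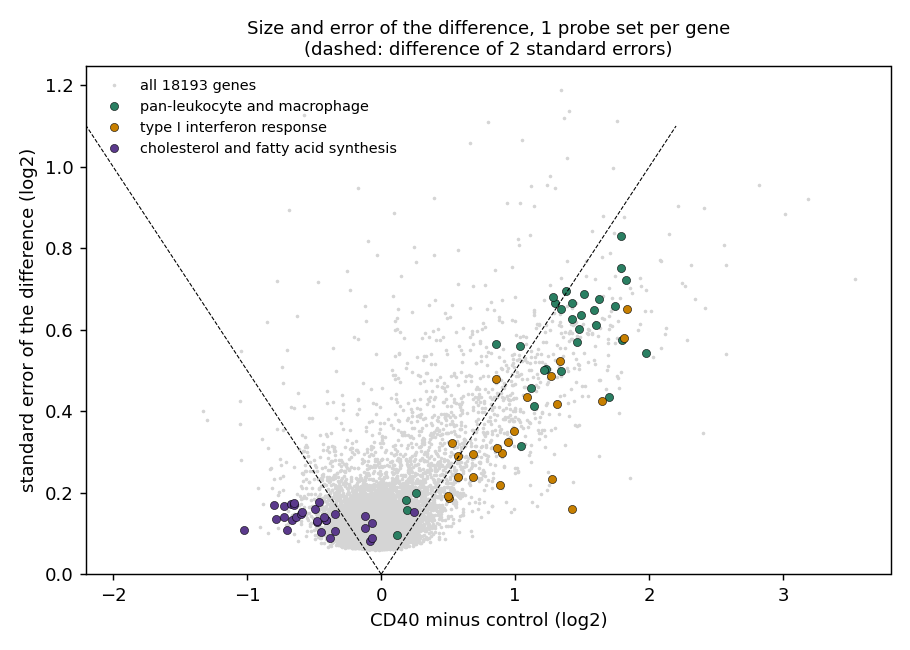
Difference of CD40 minus control in log2 units on the x axis against its standard error on the y axis for 18193 genes (grey), with pan-leukocyte and macrophage genes in green, type I interferon genes in orange and lipid synthesis genes in purple. Dashed lines mark a difference of 2 standard errors. Lipid synthesis genes sit low and to the left, leukocyte genes high and to the right, and Oas2 is the orange point with a difference of 1.43 and an SE of 0.16.

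The genes with the smallest p values came from both sides. Il13ra1 encodes a chain of the receptor for IL-13 and, with the IL-4 receptor chain, for IL-4. One of its probe sets gave 7.88, 7.96, 8.10 and 7.71 in CD40 tumors 1 to 4, against 6.69, 6.63, 7.02 and 6.58 in control tumors 1 to 4. The groups were apart by more than the spread within either, the difference being 1.18 (SE 0.12, adjusted p = 0.0723). All 5 probe sets of Il13ra1 were higher in CD40 tumors, the brightest by 1.17 (SE 0.17). Scd1, the desaturase that makes monounsaturated fatty acids, gave 10.42, 10.47, 10.07 and 10.49 in CD40 tumors, against 11.38, 11.32, 11.31 and 11.53 in control tumors. Every CD40 tumor was lower, and the difference was −1.02 (SE 0.11, adjusted p = 0.0723). It was −0.93 without CD40 tumor 3, the lowest of the 4. Another probe set at the same adjusted p (5.64, 5.39, 6.00 and 5.81 in CD40 tumors, against 4.38, 4.22, 4.45 and 4.52 in control tumors) has no gene name in the annotation used.

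Oas2, which makes the second messenger that activates RNase L on viral RNA, gave 8.80, 9.29, 8.79 and 8.65 in CD40 tumors, against 7.10, 7.51, 7.63 and 7.58 in control tumors. Among the listed interferon response genes it had the smallest p in limma, at a difference of 1.43 (SE 0.16, adjusted p = 0.0954). Ceruloplasmin (Cp), a copper-carrying ferroxidase, had a mean of 9.55 ± 0.14 in CD40 tumors and 8.58 ± 0.31 in control tumors (SD, n = 4 each), and all 8 of its probe sets were higher. Clusterin (Clu), a secreted chaperone, had a mean of 9.02 ± 0.23 in CD40 tumors and 7.90 ± 0.35 in control tumors. The estrogen receptor gene Esr1 gave 6.68, 6.82, 7.30 and 6.56 in CD40 tumors, against 4.47, 4.71, 5.43 and 5.32 in control tumors, of which control 1 and 2 were below background. Lower in every CD40 tumor were Fabp7, a fatty acid binding protein of neural crest and glial cells, and Lpin1, a phosphatidate phosphatase of glycerolipid synthesis. Fabp7 gave 9.27, 9.29, 9.17 and 9.04 in CD40 tumors, against 9.81, 10.16, 10.01 and 10.16 in control tumors. Lpin1 gave 8.16, 8.14, 8.15 and 8.37 in CD40 tumors, against 8.89, 8.74, 8.90 and 8.77 in control tumors. Their differences were −0.84 (SE 0.10) and −0.62 (SE 0.08). Fhod3, a formin, was also lower, but its mean in CD40 tumors (4.33) was below background.

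By size, among genes with an unadjusted p under 0.01 whose groups did not overlap, the leading gene was Ubd (FAT10), a ubiquitin-like modifier induced by interferon gamma and TNF. It gave 9.68, 10.71, 10.81 and 8.64 in CD40 tumors, against 5.11, 5.62, 8.45 and 6.51 in control tumors. The groups did not overlap, but CD40 tumor 4 lay only just above control tumor 3, and the difference was 3.54 (SE 0.73, 95% interval 1.90 to 5.17, adjusted p = 0.391). Its promoter has an NF-kB match that ends 6 bases before the start. Next in that set came 3 C-type lectins of myeloid cells that signal through ITAM adaptors. Clec4e (Mincle), a sensor of mycobacterial glycolipid and of dead cells, gave 6.14, 8.82, 11.29 and 7.80 in CD40 tumors, against 4.28, 5.42, 5.88 and 5.73 in control tumors. The difference was 3.19 (SE 0.92), and 2.26 without CD40 tumor 3, the highest of the 4. Clec4n (Dectin-2) and Clec4d, which pairs with Clec4e, differed by 2.58 (SE 0.54) and 2.42 (SE 0.65), and by 2.10 and 1.85 without it.

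The other genes that the naming rule gave on the higher side were Ifi204, Cd5l, Ccl5, Icam1, Cd300lf, Adgre4 and Itgam. Ifi204, an interferon-inducible DNA sensor, gave 7.59, 8.20, 8.44 and 7.29 in CD40 tumors, against 4.66, 5.24, 6.08 and 5.93 in control tumors. That is a 5.29-fold higher mean with an SE of 0.35 log2 units. Cd5l, a protein secreted by tissue macrophages, gave 9.12, 6.90, 9.71 and 6.37 in CD40 tumors, against 5.36, 5.75, 5.56 and 6.06 in control tumors, so that CD40 tumors 1 and 3 were high and the other 2 nearer to the controls. Ccl5, a chemokine for T cells and monocytes, differed by 2.28 (SE 0.57), and Icam1, the ligand of leukocyte integrins, by 2.12 (SE 0.59). Itgam, the CD11b chain of myeloid integrins, gave 6.08, 7.58, 8.58 and 6.44 in CD40 tumors, against 4.34, 4.90, 5.86 and 5.67 in control tumors. Cd300lf, an inhibitory receptor of myeloid cells, and Adgre4, an adhesion receptor of macrophages, differed by 2.09 (SE 0.56) and 2.03 (SE 0.53).

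On the lower side the rule gave Cox7a1, Scd1, Ttpa, Fhod3, Dusp18, Fabp7, Cmtm5, Mvd, Tm7sf2, Tet1, Smtnl1 and Gpr37. The sizes were smaller than on the higher side, between −1.30 for Cox7a1, a subunit of cytochrome c oxidase, and −0.73 for the orphan receptor Gpr37. Cox7a1 gave 6.69, 5.38, 7.35 and 6.59 in CD40 tumors, against 7.40, 8.07, 7.48 and 8.27 in control tumors. CD40 tumor 3 almost reached control tumor 1, and without it the difference was −1.58. Tet1, a DNA demethylase, was lower on all 4 of its probe sets, its brightest at 6.61, 6.58, 6.25 and 6.39 in CD40 tumors, against 7.39, 7.20, 7.01 and 7.31 in control tumors. Ttpa, a carrier of vitamin E, differed by −0.92 (SE 0.21).

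**Figure D2:**
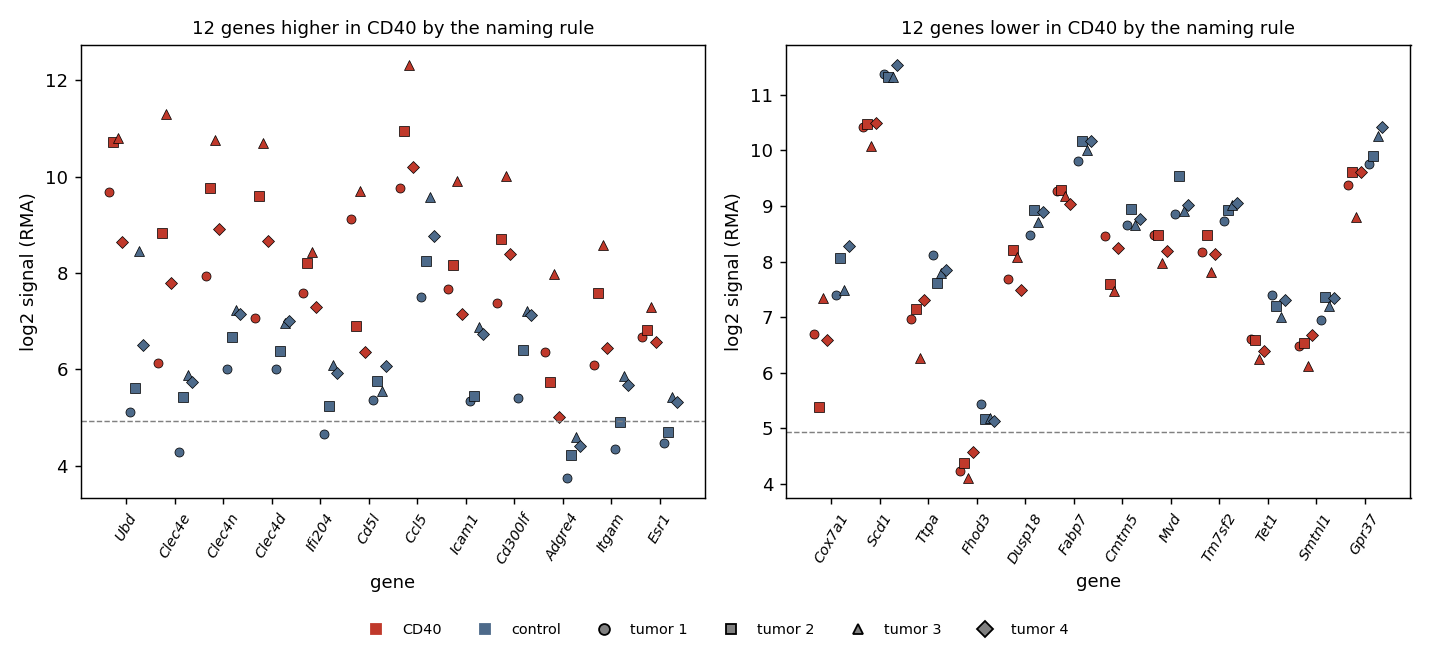
Log2 signal of the 12 genes with the largest higher (left) and lower (right) mean in CD40 tumors among genes with an unadjusted p under 0.01 whose groups do not overlap, 1 marker per tumor, red for CD40 and blue for control, with the background level dashed. On the left the CD40 tumors spread widely (Clec4e 6.14 to 11.29), and on the right most groups are narrow (Scd1 10.07 to 10.49 in CD40 and 11.31 to 11.53 in control).

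The target of the antibody and its direct pathway gave modest values. Cd40 gave 6.23, 7.43, 8.86 and 6.18 in CD40 tumors, against 5.60, 5.43, 6.21 and 6.05 in control tumors. CD40 tumors 2 and 3 were well above all controls, tumor 1 was level with control tumor 3 and tumor 4 below it, so that the groups overlapped, at a difference of 1.35 (SE 0.54, adjusted p = 0.567). All 3 probe sets of Cd40 were higher, and without CD40 tumor 3 the brightest differed by 0.79. Of 16 measured genes of the CD40 receptor and NF-kB list, 2 were higher and 0 lower at an unadjusted p under 0.05, namely Cd40 and Birc2, an inhibitor of apoptosis that binds TRAF2, and none was without overlap. The list median was 0.40, against −0.03 over all 18193 genes, and 0.14 without CD40 tumor 3. Feedback targets of NF-kB had the highest value in CD40 tumor 3, among them Nfkbia, which encodes the inhibitor of NF-kB (10.71, 11.33, 12.52 and 10.91, against 10.31, 10.50, 10.84 and 10.79 in control tumors). Traf1, a TRAF induced by NF-kB, gave 4.51, 5.55, 7.61 and 5.48 in CD40 tumors, against 4.44, 4.39, 4.77 and 4.91 in control tumors. Cd40lg, the natural ligand, differed by 0.05 (95% interval −0.15 to 0.24).

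Dendritic cell maturation genes, which include costimulatory ligands and cytokines of licensed cells, had 0 of 16 members higher and 0 lower at an unadjusted p under 0.05, with 7 of the 16 below background. Their median was 0.10, and −0.02 without CD40 tumor 3. Cd86, a costimulatory ligand, gave 6.09, 6.39, 8.20 and 6.04 in CD40 tumors, against 5.23, 5.28, 6.33 and 6.02 in control tumors, so that only CD40 tumors 2 and 3 exceeded the controls. Ccr7, the receptor that guides mature dendritic cells to lymph nodes, gave 4.19, 4.72, 5.90 and 4.88 in CD40 tumors, against 5.18, 4.33, 4.47 and 5.43 in control tumors, with no order between the groups (0.07, 95% interval −0.76 to 0.90). Conventional dendritic cell markers had a median of −0.06, and 4 of 10 lay below background. Of the 10, 2 were higher and 1 lower at an unadjusted p under 0.05, or 1 and 2 without CD40 tumor 3. Irf8, a transcription factor of dendritic cells and monocytes, was among the higher ones, by 1.33 (SE 0.56), or 1.07 without CD40 tumor 3. The lower one was Itgae, which marks migratory dendritic cells and resident T cells. Itgae was lower in every CD40 tumor but below background (4.40 to 4.60, against 4.63 to 4.82 in control tumors). B cell markers, the other cells that carry CD40, had 0 of 10 members past an unadjusted p under 0.05, a median of 0.06 and 8 members below background.

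Type I interferon response genes had the highest share of members past the unadjusted threshold among the immune lists. Of 22 measured, 19 were higher and 0 lower (background 4.04% and 5.94%), all 22 had a higher mean, 6 were without overlap (background 1.70%), and the median was 0.92. The 6 included Oas2, Oasl1, Oas1a and Irf7. Oasl1, an OAS-like protein that restrains Irf7 translation, gave 7.10, 7.72, 7.58 and 6.93 in CD40 tumors, against 5.56, 5.88, 6.49 and 6.29 in control tumors. Oas1a gave 10.88, 11.52, 10.97 and 10.80 in CD40 tumors, against 9.61, 10.19, 10.60 and 10.22 in control tumors. Irf7, the transcription factor that sustains interferon production, differed by 1.65 (SE 0.42). The list score was 0.72, 1.64, 1.16 and 0.57 above the control mean in CD40 tumors 1 to 4, against −0.83, −0.06, 0.62 and 0.27 in control tumors 1 to 4. CD40 tumor 4 was just below control tumor 3, and the lowest control differed from the highest by 1.44. Unlike the leukocyte lists, this list did not have its highest score in CD40 tumor 3, and without that tumor its median was 0.90, with 17 members higher at an unadjusted p under 0.05.

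Interferon gamma response genes had 12 of 17 members higher and 0 lower at an unadjusted p under 0.05, with 4 free of overlap and a median of 1.19. Cxcl11, a ligand of CXCR3, gave 7.37, 9.45, 7.93 and 8.42 in CD40 tumors, against 6.71, 6.80, 6.93 and 6.90 in control tumors, where the controls lay close together. Cxcl10, a second ligand of CXCR3, gave 11.36, 12.61, 12.26 and 11.44 in CD40 tumors, against 10.56, 9.96, 11.40 and 10.89 in control tumors, and the difference was 1.22 (SE 0.35). Ido1, which degrades tryptophan, gave 5.35, 6.62, 5.39 and 4.81 in CD40 tumors, against 4.21, 3.96, 4.80 and 4.43 in control tumors, all 4 controls being below background. Ifng itself gave 5.83, 7.56, 7.84 and 5.70 in CD40 tumors, against 4.35, 4.43, 6.43 and 4.92 in control tumors. Control tumor 3 was above CD40 tumors 1 and 4, and the difference was 1.70 (SE 0.60, adjusted p = 0.553).

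Guanylate-binding proteins and immunity-related GTPases, which attack vacuoles of intracellular microbes, had 6 of 9 members higher at an unadjusted p under 0.05, or 4 without CD40 tumor 3, and none free of overlap. Gbp3 gave 11.09, 11.90, 11.77 and 10.87 in CD40 tumors, against 9.07, 9.03, 11.02 and 10.51 in control tumors. The 2 controls that were high for Gbp3 were also the 2 highest controls for Ubd, Ifng and Ptprc. Interferon-stimulated response elements were found in the promoters of 6 of the 6 GTPase genes with a RefSeq window and of 9 of 16 type I interferon genes, against 3.63% of 14452 measured genes with a window.

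Among antigen presentation genes, control tumors 1 and 2 were again the lowest of the 8 by the MHC class I, MHC class II and immunoproteasome scores. Of 13 measured MHC class I and peptide loading genes, 9 were higher at an unadjusted p under 0.05, with a median of 0.92, or 3 and 0.82 without CD40 tumor 3, and only H2-M3 was higher in every CD40 tumor. H2-M3, a nonclassical class I molecule that presents N-formylated peptides, gave 9.62, 9.78, 10.07 and 9.42 in CD40 tumors, against 8.03, 8.28, 8.94 and 8.68 in control tumors (1.24, SE 0.21, adjusted p = 0.273). H2-K1, the classical molecule that presents the main ovalbumin peptide, was near the top of the scale and differed by 0.40 (SE 0.15). Of 4 immunoproteasome subunits 3 were higher at that threshold (1 without CD40 tumor 3), and Psmb8 was without overlap (12.03 to 12.63 in CD40 tumors, against 10.32 to 11.98 in control tumors). Of 12 constitutive proteasome subunits 0 were, with a median of 0.02. MHC class II presentation genes had 8 of 11 members higher and a median of 1.40, or 5 and 1.11 without CD40 tumor 3. H2-Ab1, a class II beta chain, gave 11.04, 11.90, 12.75 and 11.22 in CD40 tumors, against 8.51, 9.38, 11.29 and 10.84 in control tumors, so that control tumor 3 lay above CD40 tumors 1 and 4. The 2 class II list members without overlap were Lgmn, a lysosomal protease, at 0.52 (SE 0.14), and H2-DMb2, a chain of the peptide exchange factor, at 1.22 (SE 0.34).

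Leukocyte signal differed among tumors of the same group. The pan-leukocyte score of 18 genes was 0.44, 1.29, 2.41 and 0.65 above the control mean in CD40 tumors 1 to 4, against −0.88, −0.48, 0.74 and 0.62 in control tumors 1 to 4. CD40 tumor 4 thus lay between control tumors 4 and 3, and CD40 tumor 1 below both. Of the 18 genes 13 were higher at an unadjusted p under 0.05, but 4 without CD40 tumor 3, and the median of 1.38 was then 0.92. Ptprc, the CD45 phosphatase of all leukocytes, gave 9.70, 10.68, 12.05 and 9.85 in CD40 tumors, against 7.39, 8.24, 9.93 and 9.73 in control tumors. Its difference was 1.75 (SE 0.66).

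**Figure D3:**
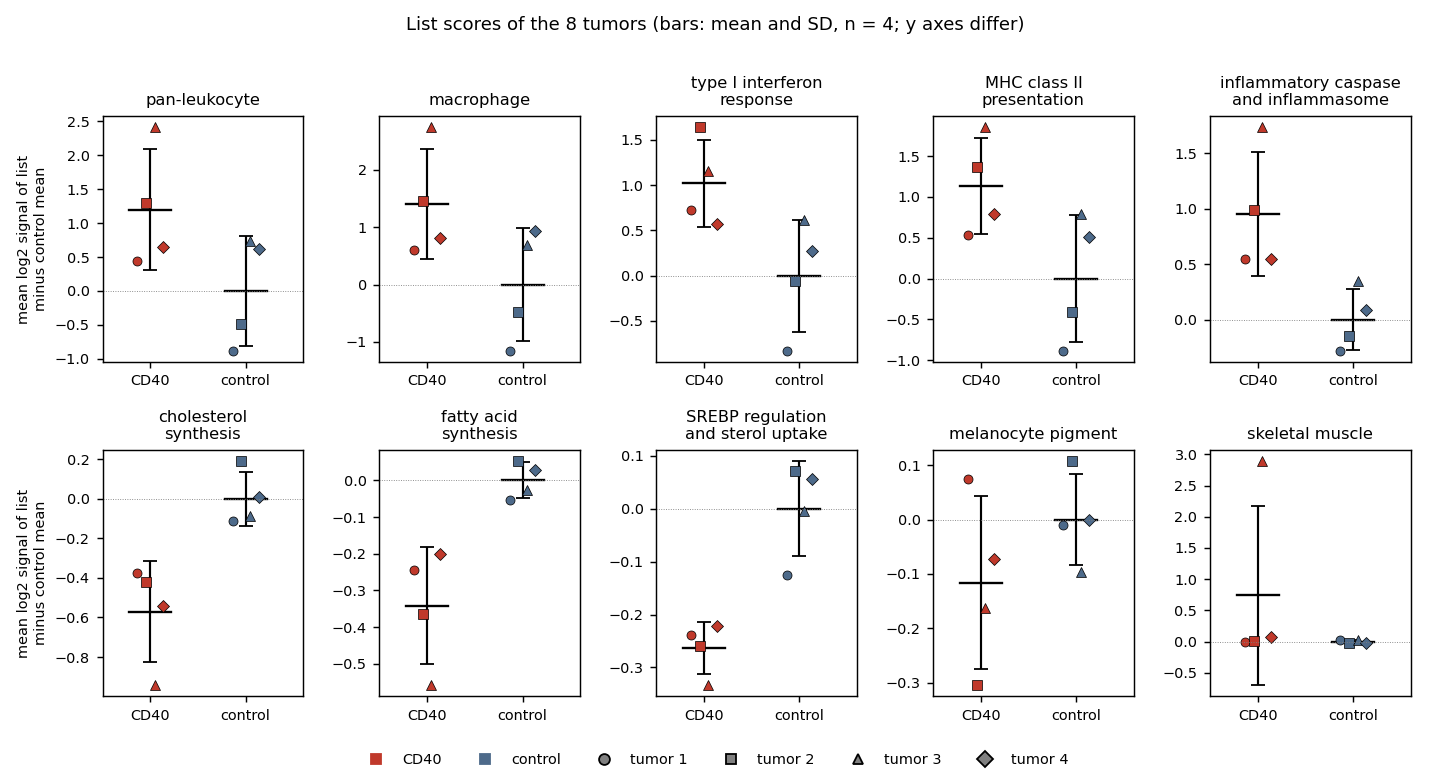
Scores of 10 gene lists (mean log2 signal of the members per tumor, relative to the mean of the controls), with 1 marker shape per tumor number, CD40 in red on the left and control in blue on the right of each panel, and black bars for the mean and SD of 4 tumors. Leukocyte, macrophage, interferon and MHC class II scores overlap between the groups, while the 3 lipid lists and the caspase list do not, and the skeletal muscle score of CD40 tumor 3 stands at 2.89.

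Macrophage markers had 6 of 14 members higher at an unadjusted p under 0.05 and a median of 1.40, or 3 and 0.92 without CD40 tumor 3. The 3 without overlap included Itgam and Msr1, a scavenger receptor for modified lipoproteins. Msr1 gave 8.80, 9.88, 10.43 and 9.18 in CD40 tumors, against 7.10, 7.31, 8.55 and 8.54 in control tumors, and all 4 of its probe sets were higher. Genes linked to M1-type macrophages had 7 of 12 members higher and a median of 1.08, and genes linked to M2-type macrophages 3 of 13 and a median of 0.36. Without CD40 tumor 3 these medians were 0.61 and −0.02. Nos2, which makes nitric oxide in M1-type cells, was near background and differed by 0.13 (95% interval −0.19 to 0.45). Mrc1, the mannose receptor used as an M2 marker, gave 7.35, 7.08, 9.74 and 7.60 in CD40 tumors, against 6.32, 7.30, 7.54 and 8.65 in control tumors, and its difference of 0.49 was −0.11 without CD40 tumor 3. Other M2-linked genes had large values, among them Arg1, an arginase (7.05, 9.88, 11.06 and 9.20, against 6.59, 7.56, 7.10 and 5.65 in control tumors), and Il4ra, the IL-4 receptor chain that pairs with Il13ra1 (6.27 to 8.29, against 5.57 to 6.26 in control tumors, a difference of 1.02, or 0.61 without CD40 tumor 3).

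Fc gamma receptors had 4 of 5 members higher at an unadjusted p under 0.05, or 2 without CD40 tumor 3. Fcgr2b, the inhibitory receptor, was the only one higher in every CD40 tumor, at 10.69, 10.88, 11.69 and 10.62, against 9.44, 9.60, 10.23 and 9.63 in control tumors, and all 5 of its probe sets were higher. The activating receptors Fcgr3 and Fcgr4 differed by 1.40 (SE 0.57) and 1.50 (SE 0.61) and overlapped. Inflammatory monocyte genes had 5 of 8 members higher, 2 free of overlap and a median of 1.36 (0.76 without CD40 tumor 3), with scores of 0.26, 1.44, 2.76 and 0.60 in CD40 tumors and −0.36 to 0.28 in controls. Neutrophil genes had 2 of 12 higher, 5 below background and a score of 1.35 in CD40 tumor 3, against 0.11 to 0.31 in the other CD40 tumors and −0.11 to 0.27 in controls.

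Of 13 T cell receptor and coreceptor genes, 2 were higher at an unadjusted p under 0.05, with a median of 0.47, or 0.20 without CD40 tumor 3. Cd3d, a chain of the CD3 complex, gave 6.56, 7.69, 9.05 and 7.31 in CD40 tumors, against 5.74, 5.86, 7.25 and 6.46 in control tumors. The probe sets of Cd8a disagreed in size, the brightest giving 0.16 (95% interval −0.09 to 0.40) and the dimmer 4 giving 1.21 (SE 0.44), 1.11 (SE 0.43), 0.72 (SE 0.39) and 0.32 (SE 0.22), all higher. Cd4 was low on this array, at 5.82 to 5.97 in CD40 tumors and 5.69 to 5.93 in control tumors. Foxp3, the factor of regulatory T cells, was at background (4.67 to 4.97, against 4.73 to 4.99 in control tumors), and regulatory T cell genes had a median of 0.00.

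Cytotoxic effector genes had 9 of 18 members higher at an unadjusted p under 0.05 and a median of 1.05, or 6 and 0.65 without CD40 tumor 3. Gzmb, the granzyme that starts apoptosis in target cells, gave 7.29, 9.49, 10.06 and 8.40 in CD40 tumors, against 5.93, 6.05, 8.87 and 7.22 in control tumors, and overlapped between the groups. Gzmc, a granzyme of strongly activated cytotoxic cells, gave 4.97, 5.65, 4.64 and 6.46 in CD40 tumors, against 3.58, 3.82, 5.03 and 4.34 in control tumors, and unlike Gzmb was lowest in CD40 tumor 3. Gzmc was close to background, with CD40 tumor 3 and control tumors 1, 2 and 4 below it. Perforin (Prf1) differed by −0.08 (95% interval −0.28 to 0.13) on its brightest probe set, while its other probe set was higher at an unadjusted p under 0.05. Of 6 NK cell genes 5 were below background. Immune checkpoint genes had 7 of 12 members higher and 3 free of overlap. Cd274, which encodes PD-L1, gave 9.63, 10.57, 10.97 and 9.42 in CD40 tumors, against 7.91, 8.50, 9.57 and 9.04 in control tumors, with an overlap of CD40 tumor 4 and control tumor 3. Free of overlap were Tnfrsf9, the costimulatory receptor 4-1BB (9.89 to 10.26, against 8.23 to 9.62 in control tumors, with 1 of its 3 probe sets of the opposite sign), and Lgals9, a galectin that binds TIM-3 (8.82 to 9.43, against 7.91 to 8.75).

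Inflammatory caspases and inflammasome genes formed the immune list that separated the groups. Of 12 measured, 9 were higher at an unadjusted p under 0.05 (background 4.04%), 4 were without overlap (background 1.70%), and the median was 1.09. The scores were 0.54, 0.99, 1.73 and 0.55 in CD40 tumors and −0.28, −0.15, 0.35 and 0.08 in control tumors. Casp4, the mouse caspase-11 that senses lipopolysaccharide in the cytosol, gave 8.51, 9.36, 9.55 and 8.59 in CD40 tumors, against 7.28, 7.02, 8.05 and 7.17 in control tumors (1.62, SE 0.29, adjusted p = 0.298). Casp1, which matures IL-1 beta and IL-18, gave 8.15, 8.48, 9.30 and 7.99 in CD40 tumors, against 6.53, 6.89, 7.69 and 7.32 in control tumors. Casp12, a neighbour of both in the genome, gave 8.99, 9.54, 9.18 and 8.81 in CD40 tumors, against 7.28, 7.62, 8.76 and 7.69 in control tumors. The fourth, Naip2, the receptor of the NLRC4 inflammasome for bacterial secretion rods, differed by 0.66 (SE 0.18). Without CD40 tumor 3 the median was 0.57 and 8 of the 12 still had an unadjusted p under 0.05. Ripk3 and Mlkl, the kinase and pore protein of necroptosis, differed by 0.74 (SE 0.29) and 0.44 (SE 0.20).

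Chemokine genes had 11 of 20 members higher at an unadjusted p under 0.05, 4 without overlap and a median of 1.15, or 0.76 without CD40 tumor 3. Ccl12, a monocyte attractant, gave 7.84, 9.63, 9.60 and 7.98 in CD40 tumors, against 6.33, 6.79, 7.28 and 7.54 in control tumors. Complement genes had 6 of 11 members higher, 3 without overlap and a median of 1.28. Serping1, the inhibitor of C1, gave 10.50, 10.73, 11.83 and 9.76 in CD40 tumors, against 9.08, 9.01, 9.52 and 9.42 in control tumors. Properdin (Cfp), which stabilises the alternative pathway convertase, and C1s1, a protease of C1, were the other 2 and differed by 1.69 (SE 0.54) and 0.97 (SE 0.32), and by 1.16 and 0.62 without CD40 tumor 3. A dimmer probe set of Cfp had the opposite sign. On the endothelial list, which had a score of 1.00 in CD40 tumor 3, Icam2, a ligand of leukocyte integrins, was higher in every CD40 tumor. It gave 9.48, 9.36, 9.11 and 9.09 in CD40 tumors, against 8.50, 8.59, 8.69 and 7.94 in control tumors, with CD40 tumor 3 not above the others.

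Cholesterol synthesis genes were lower almost throughout. Of 17 measured, 0 were higher and 16 lower at an unadjusted p under 0.05 (background 4.04% and 5.94%), 12 were without overlap (background 3.95%), and all 17 had a lower mean. The median was −0.65, or −0.47 with 15 genes past the threshold when CD40 tumor 3 was left out. The score was −0.38, −0.42, −0.94 and −0.54 in CD40 tumors 1 to 4, against −0.11, 0.19, −0.09 and 0.01 in control tumors 1 to 4. CD40 tumor 3, the tumor with the most leukocyte and muscle signal, was thus the lowest. Among control tumors, 1 and 2 had lower pan-leukocyte scores than 3 and 4, while their cholesterol scores were the lowest and the highest of the 4. The melanocyte pigment score was 0.07, −0.30, −0.16 and −0.07 in CD40 tumors and −0.01, 0.11, −0.10 and 0.00 in control tumors. The control mean of this list was high, at 12.23, and how closely the score follows the share of tumor cells was not tested. The part of the mix of cells in the lower lipid genes was not tested.

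Along the pathway the lower values ran from the first to the last steps. Hmgcs1, which makes HMG-CoA and whose promoter carries the sterol regulatory element shown above, gave 11.21, 11.04, 10.83 and 10.87 in CD40 tumors, against 11.60, 11.88, 11.56 and 11.72 in control tumors. All 5 probe sets of Hmgcs1 were lower, and the brightest differed by −0.70 (SE 0.11, adjusted p = 0.231). Of 14 cholesterol synthesis genes with a promoter window it was the 1 with that motif, against 1.46% of all measured genes with a window. In the mevalonate steps, Mvd differed by −0.80 (SE 0.17) and Idi1 by −0.65 (SE 0.17), and Mvk overlapped at −0.35 (SE 0.15), or −0.21 without CD40 tumor 3. In the squalene and lanosterol steps, Sqle differed by −0.48 (SE 0.13), Lss, the cyclase that forms lanosterol, by −0.67 (SE 0.13) and Cyp51, which demethylates lanosterol, by −0.59 (SE 0.15). In the late steps, Tm7sf2, a sterol reductase, gave 8.17, 8.47, 7.82 and 8.14 in CD40 tumors, against 8.73, 8.92, 9.02 and 9.06 in control tumors. Nsdhl and Msmo1, which remove methyl groups from the sterol, both differed by −0.72, with SE of 0.14 and 0.17. The exception was Ebp, the sterol isomerase, at −0.12 (95% interval −0.38 to 0.14).

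**Figure D4:**
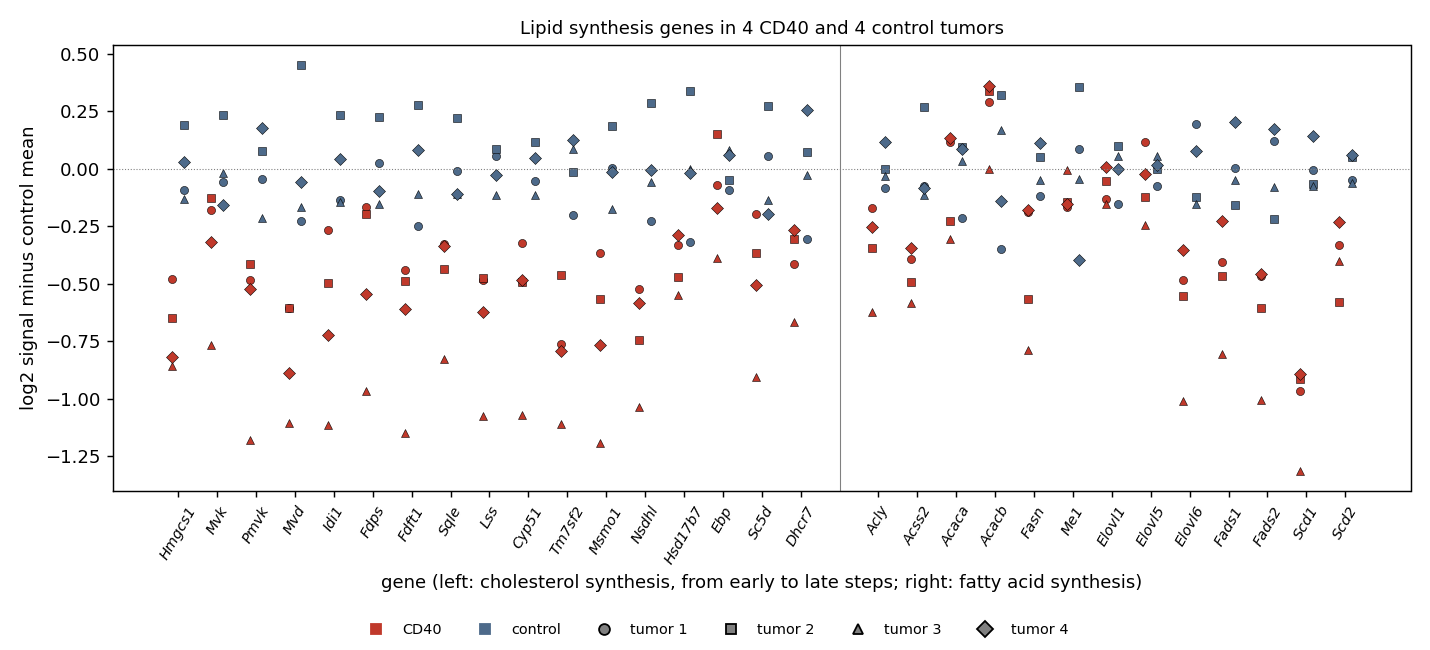
Log2 signal of each measured cholesterol synthesis gene (left of the line, from early to late steps) and fatty acid synthesis gene (right) minus the control mean, CD40 tumors in red left of control tumors in blue, 1 marker shape per tumor number. Red markers lie below blue ones for most genes, with CD40 tumor 3 lowest for many, while the groups overlap for Mvk and Ebp on the left and for Acaca, Acacb, Me1, Elovl1 and Elovl5 on the right, among others.

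Fatty acid synthesis genes had 8 of 13 members lower and 0 higher at an unadjusted p under 0.05, the same 8 being without overlap, and a median of −0.39. They were Scd1, Scd2, Fasn, Acly, Acss2, Elovl6, Fads1 and Fads2. Fads2, the delta-6 desaturase, gave 9.58, 9.44, 9.04 and 9.59 in CD40 tumors, against 10.17, 9.83, 9.97 and 10.22 in control tumors. Fasn, the fatty acid synthase, gave 10.74, 10.36, 10.14 and 10.75 in CD40 tumors, against 10.81, 10.98, 10.88 and 11.04 in control tumors, a narrow separation. The acetyl-CoA carboxylases stood outside this group, Acaca at −0.07 (SE 0.12) and Acacb at 0.25 (SE 0.15). The elongases split, with Elovl6, which extends palmitate, at −0.60 (SE 0.15), and Elovl1 and Elovl5 at −0.08 (SE 0.08) and −0.07 (SE 0.09).

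Some regulators of the pathway were lower as well. Of 9 measured genes of SREBP regulation and sterol uptake, 4 were lower and 0 higher at an unadjusted p under 0.05, and the same 4 were without overlap. Srebf2, the SREBP of cholesterol synthesis, gave 9.12, 9.31, 9.04 and 9.30 in CD40 tumors, against 9.57, 9.62, 9.65 and 10.04 in control tumors. Srebf1, the SREBP of fatty acid synthesis, differed by −0.28 (SE 0.08), Insig1, which retains SREBP in the endoplasmic reticulum and is itself a target, by −0.69 (SE 0.16), and Stard4, a sterol carrier, by −0.65 (SE 0.10). Of the 8 sterol efflux and LXR target genes 3 were higher and 1 lower at that threshold, but 0 and 1 without CD40 tumor 3. Ch25h, which makes 25-hydroxycholesterol and is induced by interferon, gave 7.73, 8.91, 8.57 and 6.76 in CD40 tumors, against 6.20, 6.98, 6.79 and 7.57 in control tumors, with an overlap through CD40 tumor 4 and control tumor 4. Nr1h3, which encodes LXR alpha, and the sterol exporter Abcg1 differed by 0.68 (SE 0.27) and 0.91 (SE 0.40), and by 0.45 and 0.58 without CD40 tumor 3. Lpcat3, a phospholipid remodelling enzyme, was the lower one and did not overlap (10.20 to 10.38, against 10.63 to 10.83 in control tumors).

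Tumor cell programmes had values close to those of the controls. Melanocyte pigment genes had 0 of 16 members higher and 1 lower at an unadjusted p under 0.05 and a median of −0.03. Mitosis and DNA replication genes had 0 of 24 and 0 of 22 members past that threshold in either direction, with medians of −0.11 and −0.03. Here the control tumors spread further than the CD40 tumors, with mitosis scores of −0.51 to 0.33 in controls and −0.30 to 0.05 in CD40 tumors. Mki67, a marker of cycling cells, gave 11.86, 11.71, 11.48 and 11.95 in CD40 tumors, against 12.10, 11.26, 11.84 and 12.08 in control tumors, with no order between the groups. MEK/ERK output genes had 0 of 18 members past the threshold, and Dusp6, an ERK phosphatase, differed by 0.12 (95% interval −0.08 to 0.32).

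The same antibody contrast exists in tumors of MEKi-treated mice, which share no sample with the 8 tumors above. In MEKi+CD40 against MEKi tumors, limma called 518 of 45037 probe sets (1.15%) at an adjusted p under 0.05, the smallest being 0.0496. That count was 0 without MEKi+CD40 tumors 1 and 3, which carry skeletal muscle transcripts, in a fit that kept only 2 MEKi+CD40 tumors. The part of the smaller group in the loss of calls was not tested. The difference between the 2 antibody effects was itself tested over all 16 tumors, and 0 probe sets (0%) passed, with a smallest adjusted p of 0.0971 and 6424 probe sets at an unadjusted p under 0.05. Among the 128 genes that were higher in every CD40 tumor at an unadjusted p under 0.01, 111 also had a higher mean in MEKi+CD40 than in MEKi tumors (86.7%, against 51.3% of all genes). Without the 2 tumors with muscle transcripts 89 did (69.5%, against 51.8% of all genes). Among the 235 genes that were lower in every CD40 tumor at that threshold, 137 also had a lower mean (58.3%, against 48.7% of all genes). Without the 2 tumors 96 did, a share of 40.9% that was below the 48.2% of all genes.

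All 12 leading genes on the higher side had a higher mean in MEKi+CD40 than in MEKi tumors, with Ubd at 4.45 and Ccl5 at 2.88 (3.33 and 1.97 without the tumors with muscle transcripts), and 11 of 12 without those tumors, the exception being Esr1. Of the lipid genes, 16 of 17 cholesterol synthesis and 10 of 13 fatty acid synthesis genes had a lower mean in MEKi+CD40 than in MEKi tumors. For 1 of the 17 and 2 of the 13 the difference of the effects had an unadjusted p under 0.05, against 17.6% of all genes. Cholesterol synthesis genes had a median of −0.46 in MEKi+CD40 against MEKi tumors, but 0.01 without those 2 tumors, whereas in CD40 against control tumors the median without CD40 tumor 3 was −0.47. Fatty acid synthesis genes had medians of −0.18 and −0.14. Scd1 differed by −0.70 (SE 0.24) in the MEKi setting and Fabp7 by −0.86 (SE 0.34), and by −0.42 and −0.37 without the 2 tumors with muscle transcripts. Lpin1 had a lower mean in CD40 than in control tumors (−0.62) and a higher mean in MEKi+CD40 than in MEKi tumors (0.25), a difference of the effects of 0.87 with an unadjusted p of 5.12e-05 and an adjusted p of 0.0971 in limma. Mitosis and DNA replication medians, −0.11 and −0.03 in CD40 against control tumors, were −0.88 and −1.36 in MEKi+CD40 against MEKi tumors, and 22 of 22 replication genes had an unadjusted p under 0.05 for the difference of the effects (17.6% of all genes).

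**Figure D5:**
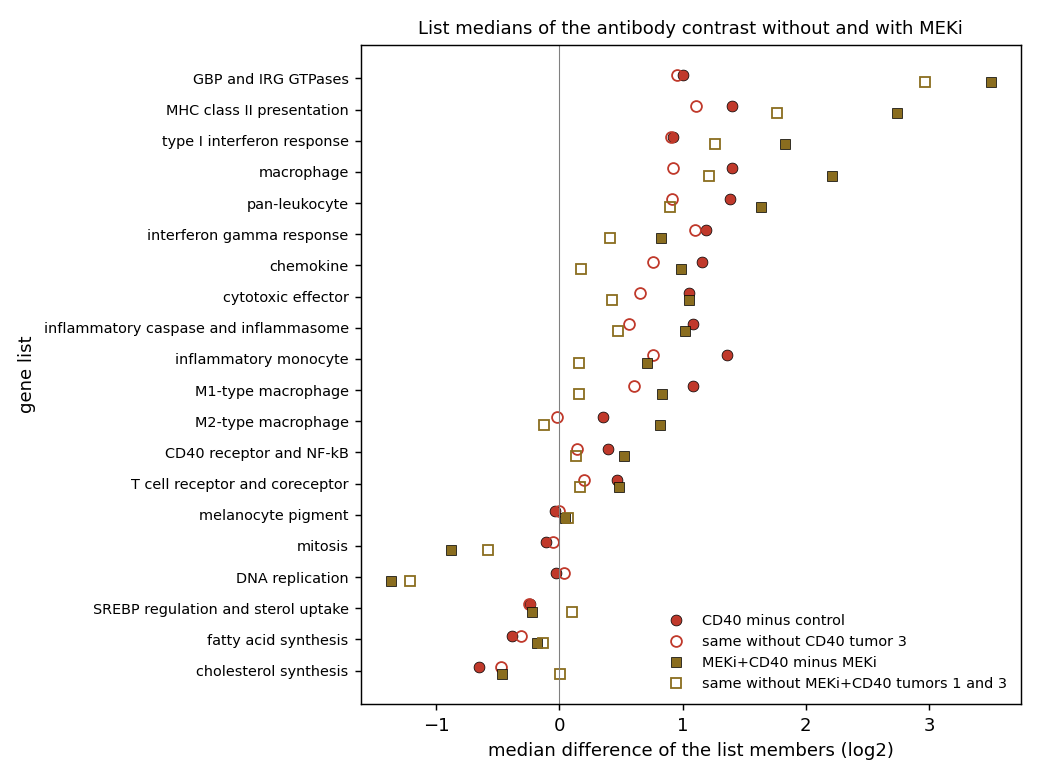
Median log2 difference of the members of 20 gene lists for CD40 minus control (red circles) and MEKi+CD40 minus MEKi (brown squares), with open symbols for the same medians without the tumors that carry skeletal muscle transcripts. Filled symbols of the immune lists lie to the right of 0 for both contrasts, cholesterol synthesis lies at −0.65 and −0.47 in red and at −0.46 and 0.01 in brown, and DNA replication lies at −0.03 in red and −1.36 in brown.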

How the data were processed

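RNA from the 16 tumors had been hybridised to whole-genome Affymetrix mouse arrays, and the authors normalised the signals by RMA in Chipster before they deposited log2 values with 2 decimals. Its version is not given in the sources used. Of 45101 probe sets, 64 control probe sets were left out. CD40 and control tumors were compared with limma 3.58.1 (R 4.3.3, lmFit and eBayes on the 8 arrays), with Benjamini-Hochberg adjustment over all 45037 probe sets. The contrast under MEKi was fitted on the other 8 arrays, and the difference of the effects on all 16. Python 3.11.15 served for tables (with pandas 2.3.3 on numpy 2.4.6) and for plots (with matplotlib 3.10.9). Each gene was represented by its brightest probe set (18193 genes, named from the platform annotation). The background of 4.94 was taken from olfactory receptor probe sets.

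The 45 gene lists named 617 genes, of which 549 were measured. Members and lists were chosen with earlier results of these data known. Genes were named by rule: the 12 largest differences in each direction among genes with an unadjusted p under 0.01 and no overlap, for every list the 4 or fewer members with the lowest p, 20 genes fixed by name, and the 10 probe sets with the smallest p. Further lipid synthesis and CD40 pathway members were named after their values were seen, to show those lists in full. The fit was tested on simulated data. Alternatives were cyclic loess, median centring, array weights, a trend with robust variances, 1 probe set per gene, dim probe sets left out, the mean of the probe sets of a gene, all 16 arrays in 1 fit, a replicate block and leaving out each tumor. Leaving out the MEKi+CD40 tumors with muscle transcripts was chosen after seeing the data.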

Additional observations from a re-analysis of the deposited data

Results flagged for a closer look

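The check covered 186 groups of 4 tumors (45 lists and 48 genes in both groups). Of these, 11 held a tumor set apart from the other 3 by Dixon's criterion. Chance meets that criterion in about 1 in 20 groups, and 11 of 186 is close to that rate. The tumors named here are therefore a description. CD40 tumor 3 accounted for 6. Its score was highest for the skeletal muscle list (2.887, against −0.01 to 0.08 in the other CD40 tumors), for fibroblast and matrix genes (2.101, against −0.57 to −0.23), for neutrophil genes (1.351, against 0.11 to 0.31) and for endothelial genes (0.9988, against −0.09 to 0.08). It was lowest for DNA replication genes (−0.1778, against 0.00 to 0.04) and for Scd1 (10.07, against 10.42 to 10.49).

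The other tumors set apart were single ones. CD40 tumor 4 was highest for Lpin1 (8.37, against 8.14 to 8.16), and CD40 tumor 1 for Clu (9.36, against 8.86 to 8.94). Control tumor 4 was highest for the neutrophil list (0.266, against −0.11 to −0.05) and lowest for Nos2 (5.14, against 5.54 to 5.59). Control tumor 1 was highest for Fhod3 (5.43, against 5.13 to 5.18).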

How the results depend on the processing

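With array weights 2 probe sets passed the adjusted threshold (Scd1, adjusted p = 0.0401 in limma, and the unnamed probe set), and with a trend and robust variances 4, against 0 with the deposited values. Leaving out 1 tumor gave 0 to 1 called, the 1 being without CD40 tumor 4, and at an unadjusted p under 0.05 between 1005 and 1957 higher and between 1688 and 2865 lower probe sets. With 1 probe set per gene 711 were higher and 1109 lower, from fewer features tested. After cyclic loess 1476 were lower, and 517 genes were higher and 444 lower without overlap, against 309 and 719; the cause was not tested. In MEKi+CD40 against MEKi tumors 4699 probe sets were called when all 16 arrays were fitted together, and 0 without the tumors with muscle transcripts, where list medians also moved; the cause was not tested. The replicate block gave 0 called, with 1879 higher and 2117 lower at an unadjusted p under 0.05. After the mean of each group was subtracted, same-numbered tumors correlated at 0.29, −0.17, 0.18 and −0.10. The sample titles do not say that the numbers pair animals, so they were not taken as pairs.

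Of the 114 genes counted as named in the text, signs turned for 9, of which Mrc1 had the largest difference (0.49). Prf1 was 0.48 as the mean of its probe sets, Tyrp1 0.00595 after cyclic loess and 0.012 with array weights, and Ccr7 −0.0559 with array weights. With 1 tumor left out, the ranges were −0.0075 to 0.0725 for Cd4, −0.10 to 0.00167 for Foxp3, −0.11 to 0.89 for Mrc1, −0.257 to 0.0233 for Mki67, −0.0558 to 0.0175 for Tyrp1, −0.26 to 0.31 for Ccr7, −0.142 to 0.00833 for Acaca and −0.249 to 0.000833 for Me1. The other genes named in the text kept their direction under the alternatives run. Genes that the naming rule gave but the text leaves out were not counted, and some of them changed sign. Of 45 list medians 4 moved by more than the spread between tumors: with dim probe sets left out those of conventional dendritic cells (0.14), chemokine receptors (1.07) and keratinocytes (−0.09), and without control tumor 2 that of SREBP regulation (−0.14).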
